A study of Homo sapiens with 72 samples.

Results

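The 9 genes described here are cadherins, chosen by name from the 62266 genes of the count table and followed over every cell line and condition. They are CDH1, CDH2, CDH3, CDH4, CDH6, CDH10, CDH11, CDH13 and CDH16. Of these, 7 are classical cadherins, 4 of type I (CDH1, CDH2, CDH3 and CDH4) and 3 of type II (CDH6, CDH10 and CDH11). The label "classical" does not cover the other 2. CDH13 encodes T-cadherin, which is held in the membrane by a lipid (GPI) anchor and has no cytoplasmic domain, and CDH16 encodes a 7D cadherin with additional extracellular repeats and a short cytoplasmic tail.

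Cadherins are calcium-dependent adhesion proteins. The extracellular repeats of a classical cadherin bind a cadherin of a neighboring cell, while its cytoplasmic tail binds p120-catenin and beta-catenin and, through alpha-catenin, the actin cytoskeleton, which makes up the adherens junction. E-cadherin (CDH1) is the main cadherin of epithelia and P-cadherin (CDH3) is typical of the basal layer of stratified epithelia, whereas N-cadherin (CDH2) and cadherin-11 (CDH11) are best known from neural and mesenchymal cells, and a shift of E-cadherin toward N-cadherin is a classic readout of epithelial to mesenchymal transition (EMT).

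The libraries come from 3 human lines of epithelial cells, each made from one tissue source and immortalized with the E6 and E7 genes of a papillomavirus. VK2/E6E7 (VK2) is of vaginal origin, Ect/E6E7 (Ecto) of ectocervical and End1/E6E7 (Endo) of endocervical origin. In each line there were 8 groups of 3 libraries, 72 libraries in all. Before bacteria were added, cells received putrescine (PUT, 4 mM), spermine (SPM, 400 µM), spermidine (SPD, 400 µM) or no polyamine (NT) for 4 h. For the following 24 h they were kept with live Gardnerella vaginalis at 10000000 CFU per well (GV) or without bacteria (noGV). The groups are thus PUT+GV, SPM+GV, SPD+GV, NT+GV, PUT+noGV, SPM+noGV, SPD+noGV and NT+noGV in each line, and every group carries the E6 and E7 genes. PUT was given at a higher dose than SPM and SPD, so only the last 2 compounds are compared with each other. Neither the labels nor the methods say that the 3 replicates were separate cultures, so p-values measure the spread between these libraries, which may be technical.

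Library totals lay between 20152143 and 42767996 estimated counts (median 31872238.5). Levels are given as CPM, counts scaled to a common library size with a correction for library composition (TMM, trimmed mean of M values), and differences as log2 fold changes ± standard error (SE) from the quasi-likelihood test of edgeR. A gene passed, and is said to have risen or fallen, where the p-value adjusted over all genes tested was under 0.05. Protein names such as P-cadherin stand for the RNA of their genes, since no protein values were used here. The epithelial character of the lines was checked with marker genes: all 6 squamous markers and all 6 simple epithelial markers averaged at least 1 CPM in each line. Of 6 fibroblast markers 1, 1 and 2 reached that level in Ecto, Endo and VK2 cells, and of 5 leukocyte markers 2 in each line (CD68 and CD14, while the pan-leukocyte marker PTPRC averaged between 0.0276 and 0.0507 CPM). Of 5 endothelial markers 0, 0 and 1 (CLDN5) reached it. No marker of these lists was at 0 in all libraries of a line. In bulk RNA, fewer cells with a transcript and less of it in each cell cannot be told apart.

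The genes lie on 4 chromosomes (coordinates on GRCh38, GENCODE release 44). CDH1 (chromosome 16, 68737292 to 68835537, plus strand) and CDH3 (chromosome 16, 68636189 to 68727468, plus strand) are neighbors on the same strand with 9823 bp between them. CDH11 (64943753 to 65126112, minus strand), CDH16 (66908122 to 66918917, minus strand) and CDH13 (82626965 to 83800640, plus strand) share chromosome 16 with them. CDH2 lies on chromosome 18 (27932879 to 28177946, minus strand) and CDH4 on chromosome 20 (61252261 to 61940617, plus strand). CDH6 (31193686 to 31329146, plus strand) and CDH10 (24487100 to 24644978, minus strand) are both on chromosome 5. Genes on the opposite strand overlapped 7 of the members but held at most 0.879% of a member's counts. Only CDH13 had a sizable overlap on its own strand, with HSBP1, and the 6 genes there held 241% of the CDH13 counts; how far the quantification moved reads between CDH13 and HSBP1 was not tested.

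CDH2 and CDH4, both of type I, are described below for opposite changes under putrescine, so the sequences around their start sites are shown. RefSeq windows (GRCh38.p14, 250 bases before the start and 50 from it on, 5′ to 3′) were on hand for 3 of the 9 members, CDH2, CDH4 and CDH10. They were searched on both strands for the E-box CAGGTG, to which SNAI and ZEB repressors bind, and for TGANTCA. The latter is a loose form of the AP-1 motif in which N is any base. Matches are in capitals.
CDH2, outer start, chr18:28177081-28177380, minus strand: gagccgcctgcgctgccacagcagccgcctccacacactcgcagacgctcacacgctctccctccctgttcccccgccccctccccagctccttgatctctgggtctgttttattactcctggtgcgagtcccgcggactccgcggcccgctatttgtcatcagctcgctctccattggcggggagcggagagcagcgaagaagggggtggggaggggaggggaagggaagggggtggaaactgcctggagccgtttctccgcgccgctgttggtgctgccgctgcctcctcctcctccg
CDH2, inner start, chr18:28036592-28036891, minus strand: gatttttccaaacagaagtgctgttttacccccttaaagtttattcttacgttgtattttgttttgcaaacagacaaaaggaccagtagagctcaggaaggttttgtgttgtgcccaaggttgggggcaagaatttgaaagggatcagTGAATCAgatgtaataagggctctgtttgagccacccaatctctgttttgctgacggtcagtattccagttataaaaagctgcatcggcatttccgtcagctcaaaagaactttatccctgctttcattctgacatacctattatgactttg
CDH4, inner start, chr20:61499171-61499470, plus strand: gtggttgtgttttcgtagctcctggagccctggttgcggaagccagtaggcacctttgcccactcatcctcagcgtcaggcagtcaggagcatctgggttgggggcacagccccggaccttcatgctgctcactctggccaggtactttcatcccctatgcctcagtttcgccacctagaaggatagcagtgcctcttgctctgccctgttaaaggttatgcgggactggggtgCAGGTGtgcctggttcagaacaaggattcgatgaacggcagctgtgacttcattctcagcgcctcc
The outer CDH2 window had 67% G and C and held neither motif. The inner one had 40.7% and 1 match to TGANTCA, with A as its middle base. The CDH4 window shown, chosen because it holds a match, had 57.3% G and C and 1 E-box. Over 35116 windows of this length the median was 58.7% G and C, 20.6% held a CAGGTG and 7.71% a TGANTCA. A second CDH4 window (chr20:61599511-61599810) and the CDH10 window held neither. Both CDH4 windows lie well inside the gene, which starts at 61252261, so neither covers its outer start. For CDH2, outer and inner only tell its windows apart. On the minus strand that gene begins at 28177946, outside the outer window. These matches describe letters only, and counts summed per gene do not show which start was used.

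In untreated cells (NT+noGV), E-cadherin and P-cadherin carried nearly all of the RNA measured for these 9 genes. Per kilobase of exon, CDH3 averaged 114, 71.9 and 108 CPM in VK2, Ecto and Endo cells, and CDH1 averaged 87.99, 53.4 and 105 CPM per kilobase. Over all conditions, CDH1 and CDH3 made up a median of 96.1% of the summed level per kilobase of the 9 genes in VK2, 94.3% in Ecto and 97.4% in Endo libraries. CDH13 came next in Ecto cells at 7.69 CPM per kilobase, and CDH4 in VK2 cells at 4.18 CPM per kilobase. The remaining genes stayed under 3 CPM per kilobase in every line.

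**Figure D1:**
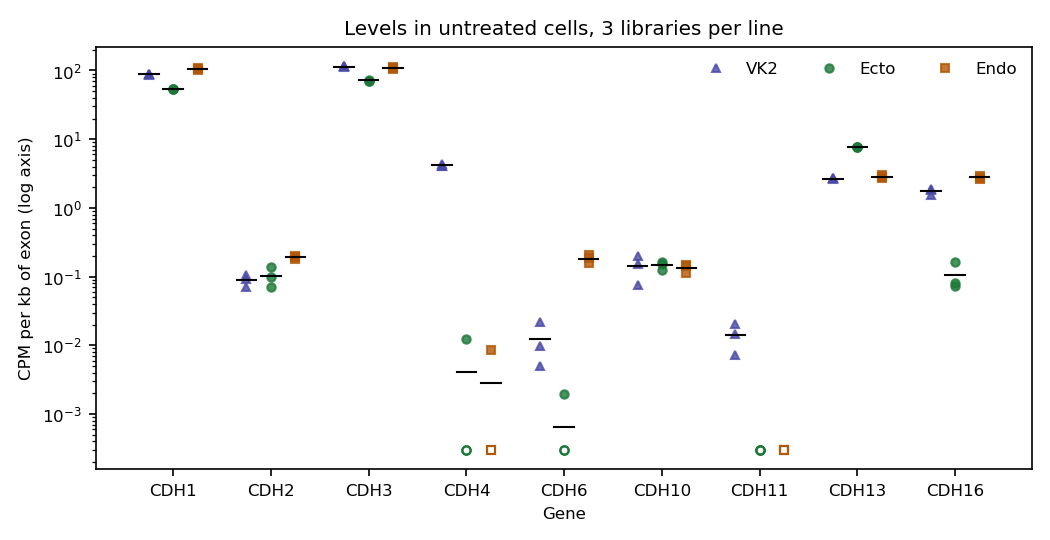
Level of each cadherin in untreated cells, as CPM per kilobase of exon on a log axis, for VK2 (triangles), Ecto (circles) and Endo (squares). Each point is a library, black bars are means of 3 libraries, and open points at the bottom are libraries with 0 counts. CDH1 and CDH3 sit between 53.4 and 114 CPM per kilobase as group means in all lines, whereas CDH4 is at 4.18 in VK2 and near 0 in Ecto and Endo cells.

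The lines differed in most members. Of the 8 members that passed the low-count filter over all 72 libraries (CDH11 did not), 6 passed between VK2 and Ecto (63.8% of all genes), 5 between VK2 and Endo (59.6%) and 6 between Ecto and Endo (63.9%), shares not far from those of all genes. R-cadherin (CDH4), a type I cadherin known from the developing nervous system, was measured almost only in VK2 cells: its libraries held 30.9, 32.2 and 31.1 CPM in VK2 cells, against 0, 0 and 0.0925 CPM in Ecto and 0, 0 and 0.0645 CPM in Endo cells. As summed counts this was 2822 in VK2 against 4 in Ecto, a ratio of 868 (95% interval 339 to 3187, counting error only), and 2822 in VK2 against 2 in Endo, a ratio of 1375 (380 to 11360). Untreated VK2 libraries thus stood far above every Ecto and Endo library for this gene.

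CDH6, a type II cadherin (K-cadherin) of the developing kidney, marked Endo cells instead. Its libraries held 0.122, 0.273 and 0.0631 CPM in VK2, 0.0244, 0 and 0 CPM in Ecto and 1.98, 2.54 and 2.29 CPM in Endo cells. The VK2 to Endo ratio was 0.0633 (95% interval 0.0331 to 0.111, counting error only). CDH16, known as kidney-specific cadherin, had 6.81, 5.54 and 6.44 CPM in VK2, 0.292, 0.264 and 0.578 CPM in Ecto and 9.37, 9.92 and 10.6 CPM in Endo cells. It was lower in Ecto than in Endo cells by a log2 difference of -4.64 ± 0.20 (adjusted p = 1.75e-30), and higher in VK2 than in Ecto cells (3.98 ± 0.21). No untreated Ecto library came near an untreated Endo or VK2 library for CDH16.

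The abundant members differed less. CDH1 was lower in Ecto than in Endo cells (log2 difference -0.97 ± 0.04), higher in VK2 than in Ecto cells (0.72 ± 0.04) and lower in VK2 than in Endo cells (-0.26 ± 0.04). CDH3 was likewise lower in Ecto than in Endo cells (-0.59 ± 0.03) and higher in VK2 than in Ecto cells (0.66 ± 0.03), while VK2 and Endo cells differed by 0.07 ± 0.03 (adjusted p = 0.0543; 0.0241 without Endo replicate 2, 0.0352 without VK2 replicate 1 and 0.0218 with DESeq2). CDH13 ran the other way: 84.5, 83.8 and 86.1 CPM in Ecto, against 32.9, 29.9 and 31.1 CPM in Endo cells (log2 difference 1.44 ± 0.06, adjusted p = 1.49e-32). N-cadherin (CDH2) was scarce in every line, with 0.793, 0.898 and 0.600 CPM in VK2, 0.853, 0.605 and 1.20 CPM in Ecto and 1.68, 1.54 and 1.71 CPM in Endo cells, and was lower than in Endo cells in both VK2 (-1.11 ± 0.20) and Ecto (-0.84 ± 0.19). CDH10, a type II cadherin of the brain, did not pass between any 2 lines, with summed counts of 48 in VK2, 60 in Ecto and 43 in Endo cells.

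The first question was what G. vaginalis alone does to these genes (NT+GV against NT+noGV). In Ecto cells 5 of 6 members tested passed, against 44.6% of all genes, with 2 up and 3 down. In Endo cells 3 of 7 passed (all genes 54.4%), all down, and in VK2 cells 3 of 8 (all genes 26.4%), 2 up and 1 down. The median log2 fold change of the members tested was -0.20, -0.08 and -0.01 in Ecto, Endo and VK2 cells, beside 0.00 over all genes of each line. With a fold change of at least 2 as well, 2 members passed in Ecto (CDH2 and CDH16; all genes 6.47%), and 0 in Endo (9.28%) and VK2 cells (2.24%).

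CDH2 had 2.63, 2.64 and 2.25 CPM in Ecto NT+GV, against 0.853, 0.605 and 1.20 CPM in NT+noGV libraries, and the groups did not overlap. The log2 fold change was 1.44 ± 0.18 (adjusted p = 2.65e-07). The sum of the fibroblast markers, nearly all of it COL1A1, averaged 26.99 CPM in Ecto NT+GV and 15.2 CPM in NT+noGV libraries. Its part in the CDH2 value was not tested. In Endo cells CDH2 had 1.81, 1.96 and 1.95 CPM in NT+GV and 1.68, 1.54 and 1.71 CPM in NT+noGV libraries, and in VK2 cells 0.881, 1.19 and 1.13 CPM against 0.793, 0.898 and 0.600 CPM; neither passed (0.22 ± 0.19 and 0.50 ± 0.22). The Ecto response exceeded the Endo response by 1.23 ± 0.25 (adjusted p = 8.53e-05).

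CDH16 also rose in Ecto cells, with 1.00, 0.860 and 0.875 CPM in NT+GV against 0.292, 0.264 and 0.578 CPM in NT+noGV libraries (1.21 ± 0.27, adjusted p = 6.85e-04). It rose in VK2 cells as well (0.43 ± 0.12, adjusted p = 0.00544), a call that was lost without NT+GV replicate 1 (adjusted p = 0.0846). In Endo cells CDH16 had 11.2, 8.28 and 12.3 CPM in NT+GV and 9.37, 9.92 and 10.6 CPM in NT+noGV libraries, which overlap.

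T-cadherin (CDH13) fell in 2 lines. It had 66.6, 59.5 and 61.1 CPM in Ecto NT+GV, against 84.5, 83.8 and 86.1 CPM in NT+noGV libraries (-0.45 ± 0.06, adjusted p = 1.14e-06), and 23.3, 23.1 and 22.7 CPM in Endo NT+GV, against 32.9, 29.9 and 31.1 CPM in NT+noGV libraries (-0.44 ± 0.07, adjusted p = 2.32e-06). In VK2 cells the change was -0.05 ± 0.05, and the VK2 response differed from that of Ecto (0.38 ± 0.08, adjusted p = 2.79e-04) and of Endo cells (0.38 ± 0.09). HSBP1, which overlaps CDH13, did not fall with it in these 2 lines. It averaged 101 ± 1.30 CPM in Ecto NT+GV and 92.1 ± 3.07 CPM in NT+noGV libraries (SD, n = 3 each). In Endo cells it averaged 92.3 ± 4.83 CPM in NT+GV and 88.6 ± 2.68 CPM in NT+noGV libraries. How far reads moved between the 2 genes was not tested.

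E-cadherin moved little. CDH1 had 291, 278 and 269 CPM in Ecto NT+GV and 330, 322 and 322 CPM in NT+noGV libraries (-0.22 ± 0.06, adjusted p = 0.00369). In Endo cells it fell by 0.08 ± 0.03 on the log2 scale (adjusted p = 0.0435), a call lost without NT+noGV replicate 2 or 3 or without NT+GV replicate 2 or 3 (adjusted p 0.0813 to 0.140) and with DESeq2 (adjusted p = 0.171), and in VK2 cells it was at 0.04 ± 0.03. P-cadherin (CDH3) fell in Ecto (-0.17 ± 0.04) and rose in VK2 cells (0.14 ± 0.03), and the difference between these responses was 0.29 ± 0.05 (adjusted p = 1.50e-06). CDH4 in VK2 cells had 19.6, 22.7 and 19.7 CPM in NT+GV, against 30.9, 32.2 and 31.1 CPM in NT+noGV libraries (-0.59 ± 0.07, adjusted p = 1.24e-07), and CDH6 in Endo cells had 1.28, 1.21 and 1.16 CPM, against 1.98, 2.54 and 2.29 CPM (-0.89 ± 0.22, adjusted p = 9.39e-04). CDH10 in VK2 cells was at -1.03 ± 0.40 (adjusted p = 0.0557) and passed without NT+noGV replicate 2 or NT+GV replicate 1 (adjusted p 0.0171 to 0.0299).

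The next question was how each polyamine changes the state of exposed cells (polyamine+GV against NT+GV). These 3 comparisons share the NT+GV libraries, so their values are given side by side and no overlap is drawn from them.

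**Figure D2:**
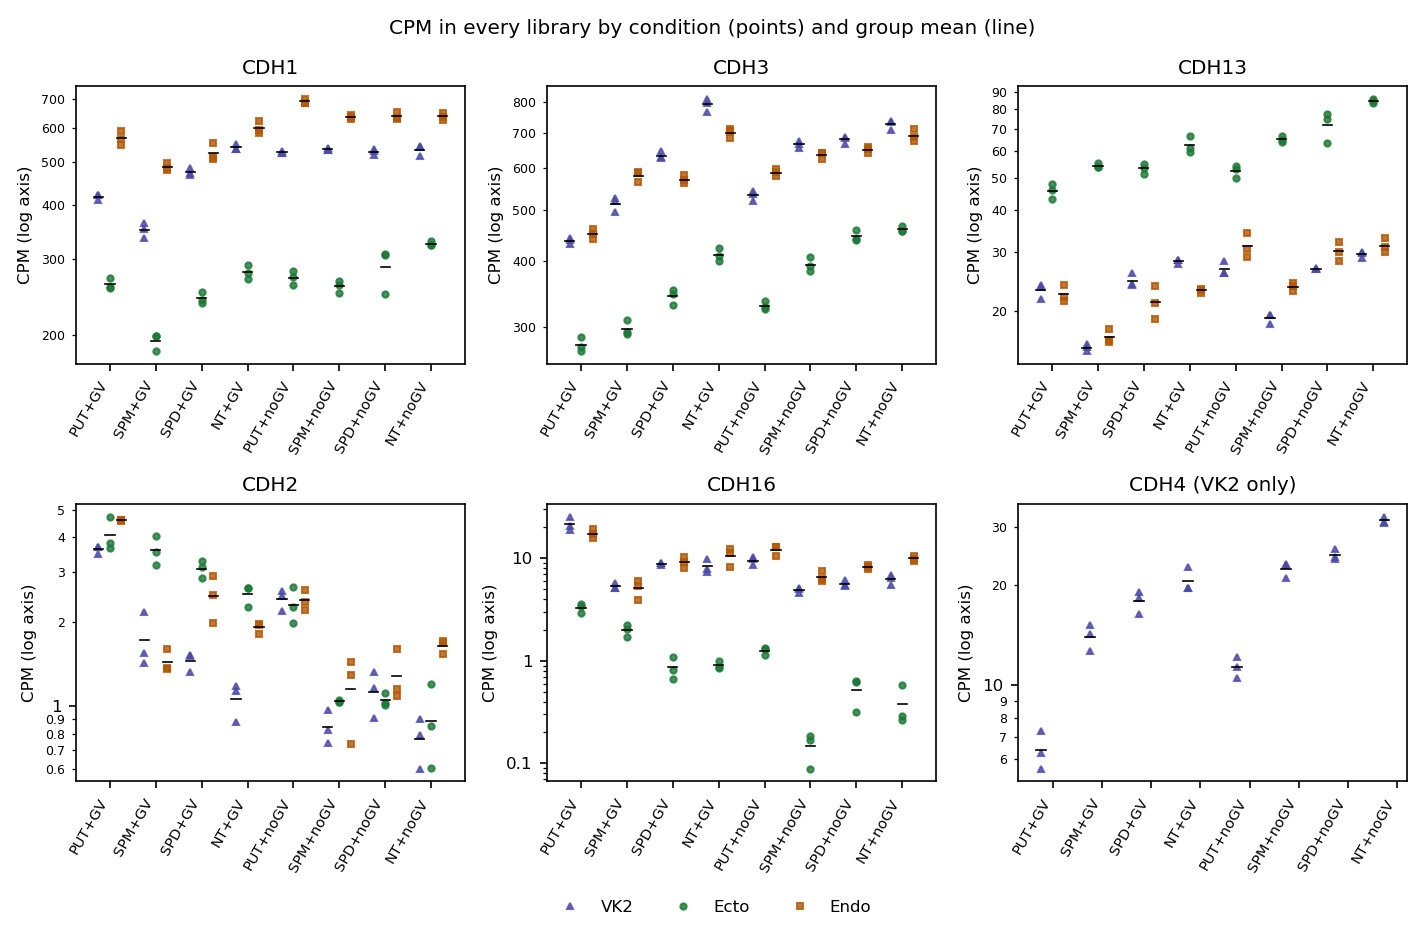
CPM of 6 cadherins in every library on log axes, by condition and line (triangles VK2, circles Ecto, squares Endo), with group means as black bars over 3 libraries. CDH2 and CDH16 are highest in PUT+GV in each line, CDH4 in VK2 cells is lowest there at 6.38 CPM against 20.6 CPM in NT+GV, and CDH1 is lowest in SPM+GV in each line.

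Putrescine before bacteria lowered P-cadherin and raised N-cadherin and CDH16 in every line. In PUT+GV against NT+GV, 5 of 6 members passed in Ecto (all genes 56.3%), 3 of 7 in Endo (56.1%) and 7 of 8 in VK2 cells (60.4%). Of these, 2 for Ecto (9.9%), 1 for Endo (8.08%) and 4 for VK2 cells (11.1%) had a fold change of at least 2. The median log2 fold change of the members tested was 0.35, -0.03 and 0.27 in Ecto, Endo and VK2 cells, beside 0.07, 0.03 and 0.01 over all genes. Both VK2 counts and the VK2 median include CDH6, which was tested there only because of its putrescine libraries. Its call is therefore no support for an effect of putrescine.

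P-cadherin fell in each line under putrescine. CDH3 had 276, 287 and 270 CPM in Ecto PUT+GV, against 424, 400 and 409 CPM in NT+GV libraries (-0.51 ± 0.04, adjusted p = 9.91e-11). Endo cells had 451, 461 and 440 CPM in PUT+GV, against 706, 712 and 685 CPM in NT+GV libraries (-0.63 ± 0.03, adjusted p = 4.18e-17). In VK2 cells it had 431, 443 and 440 CPM in PUT+GV, against 799, 813 and 768 CPM in NT+GV libraries (-0.85 ± 0.03, adjusted p = 6.39e-20). No PUT+GV library reached an NT+GV library of its line, and the VK2 change was larger than those of Ecto (-0.29 ± 0.05) and Endo cells (-0.22 ± 0.05).

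E-cadherin fell in VK2 cells, with 421, 421 and 410 CPM in PUT+GV against 551, 536 and 537 CPM in NT+GV libraries (-0.37 ± 0.03, adjusted p = 6.59e-12). It did not pass in Ecto (-0.04 ± 0.06) or Endo cells (-0.07 ± 0.03, adjusted p = 0.0665; 0.00959 without PUT+GV replicate 1 and 0.0265 with DESeq2), and the VK2 change differed from both (-0.28 ± 0.06 from Ecto and -0.30 ± 0.06 from Endo). The ratio of CDH3 to CDH1 per kilobase of exon was 1.01 ± 0.01 in Ecto PUT+GV against 1.40 ± 0.04 in NT+GV, 0.755 ± 0.024 against 1.11 ± 0.03 in Endo, and 0.998 ± 0.024 against 1.39 ± 0.04 in VK2 cells (SD, n = 3 each). Every PUT+GV library lay below every NT+GV library of its line in this ratio.

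N-cadherin rose in each line from low levels. CDH2 had 3.64, 4.73 and 3.81 CPM in Ecto PUT+GV, against 2.63, 2.64 and 2.25 CPM in NT+GV libraries (0.75 ± 0.15, adjusted p = 1.45e-04). Endo cells had 4.58, 4.56 and 4.59 CPM in PUT+GV, against 1.81, 1.96 and 1.95 CPM in NT+GV libraries (1.27 ± 0.17, adjusted p = 1.26e-07). In VK2 cells it had 3.68, 3.48 and 3.67 CPM in PUT+GV, against 0.881, 1.19 and 1.13 CPM in NT+GV libraries (1.77 ± 0.18, adjusted p = 8.13e-10). The groups did not overlap in any line, and per kilobase CDH2 in PUT+GV remained at 0.473, 0.533 and 0.421 CPM in Ecto, Endo and VK2 cells, beside 43.2, 93.5 and 68.6 CPM for CDH1 in the same groups. The summed level of the 6 fibroblast markers, nearly all of it COL1A1, was higher in the same groups (49.8, 66.4 and 65.6 CPM in PUT+GV against 26.99, 41.2 and 38.6 CPM in NT+GV of Ecto, Endo and VK2 cells); that of the 5 endothelial markers was higher too (1.81, 3.58 and 14.8 CPM in PUT+GV against 0.761, 2.03 and 2.52 CPM in NT+GV), with CLDN5 at up to 14.3 CPM in VK2 libraries. The part of either list in the CDH2 values was not tested.

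CDH16 rose as well. It had 3.45, 3.56 and 2.92 CPM in Ecto PUT+GV, against 1.00, 0.860 and 0.875 CPM in NT+GV libraries (1.90 ± 0.22, adjusted p = 3.86e-08). Endo cells had 17.4, 15.8 and 19.1 CPM in PUT+GV, against 11.2, 8.28 and 12.3 CPM in NT+GV libraries (0.73 ± 0.13, adjusted p = 8.80e-05). In VK2 cells it had 20.8, 18.7 and 25.6 CPM in PUT+GV, against 9.92, 7.30 and 7.88 CPM in NT+GV libraries (1.37 ± 0.10, adjusted p = 8.75e-13). The Endo change was below that of Ecto by 1.13 ± 0.23 and below that of VK2 cells by 0.65 ± 0.17, the second difference being 0.41 and without a call when replicate 3 was left out (adjusted p = 0.133, edgeR).

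CDH4 showed the deepest fall among the members. In VK2 cells it had 5.61, 7.29 and 6.26 CPM in PUT+GV, against 19.6, 22.7 and 19.7 CPM in NT+GV libraries (-1.68 ± 0.09, adjusted p = 5.49e-17). CDH13 fell in Ecto (-0.40 ± 0.06, adjusted p = 4.37e-06) and VK2 cells (-0.29 ± 0.05, adjusted p = 1.98e-05) but was at -0.03 ± 0.07 in Endo cells. The Endo value differed from that of Ecto cells (adjusted p = 1.11e-04) and of VK2 cells (adjusted p = 0.0328).

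The scarce type II members passed in 1 line each, and CDH10 in VK2 cells (0.83 ± 0.40, adjusted p = 0.0750) would pass without NT+GV replicate 1 (adjusted p = 0.0308). CDH10 had 1.21, 1.02 and 1.01 CPM in Ecto PUT+GV, against 0.776, 0.287 and 0.265 CPM in NT+GV libraries (1.31 ± 0.36, adjusted p = 0.00340), where NT+GV replicate 1 stood above the other 2. CDH6 had 8, 7 and 14 counts in VK2 PUT+GV, against 3, 2 and 3 counts in NT+GV libraries (1.52 ± 0.57, adjusted p = 0.0220). This CDH6 call was lost without NT+GV replicate 3 or PUT+GV replicate 3 (adjusted p 0.0702 to 0.145) and with DESeq2 (adjusted p = 0.0680). In VK2 cells CDH6 passed the low-count filter only through libraries of its putrescine groups. Its call thus depends on the filter, as does the number of members tested in that line.

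**Figure D3:**
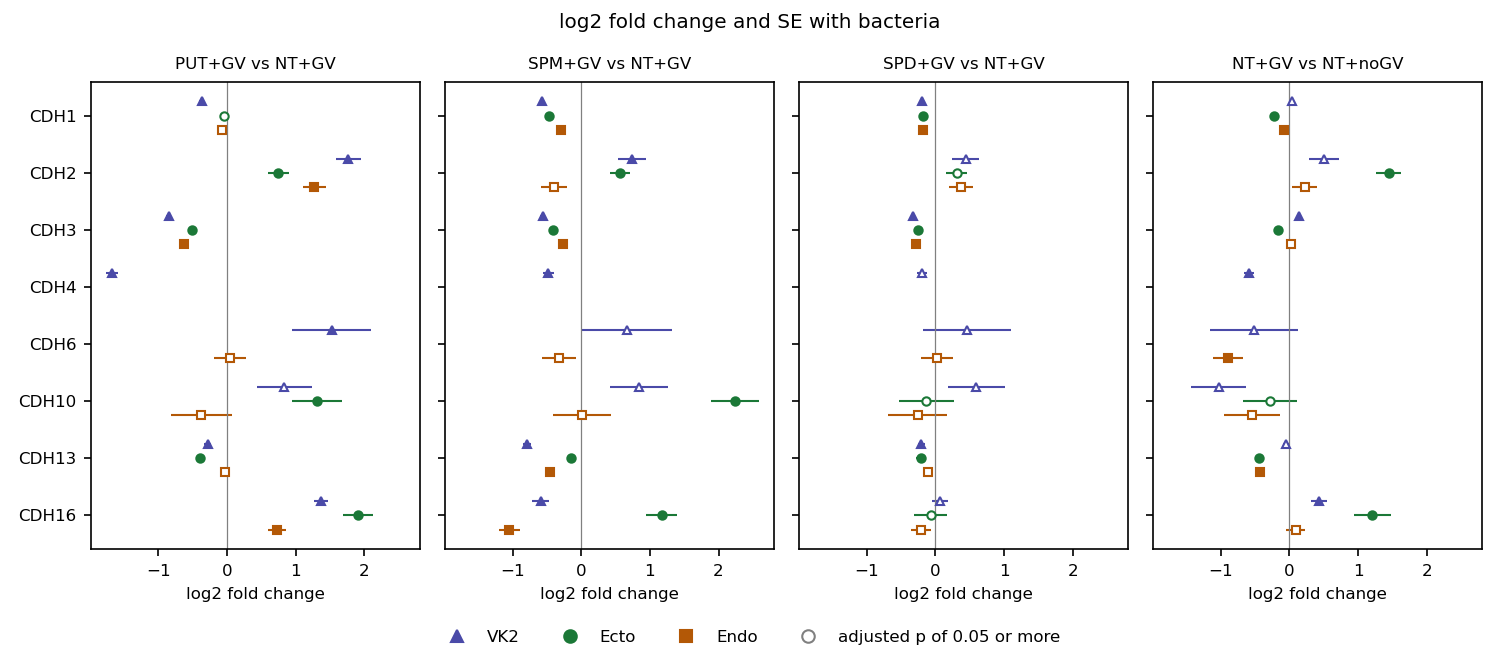
log2 fold change of 8 cadherins (points) with SE (bars) for each polyamine before bacteria against NT+GV, and for NT+GV against NT+noGV, by line. Filled points passed at an adjusted p under 0.05. CDH3 lies left of 0 under each polyamine in all lines, CDH2 lies right of 0 under putrescine in all lines (0.75 to 1.77), and CDH4 was tested in VK2 cells only.

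Putrescine changed these genes without bacteria too. In PUT+noGV against NT+noGV, 6 of 6 members passed in Ecto (all genes 46.8%), 3 of 7 in Endo (31.9%) and 5 of 8 in VK2 cells (45%). CDH3 fell in Ecto (-0.46 ± 0.04), Endo (-0.23 ± 0.03) and VK2 cells (-0.43 ± 0.03). CDH2 had 1.98, 2.25 and 2.66 CPM in Ecto PUT+noGV, against 0.853, 0.605 and 1.20 CPM in NT+noGV libraries (1.34 ± 0.18, adjusted p = 7.60e-07), and 2.19, 2.57 and 2.46 CPM in VK2 PUT+noGV, against 0.793, 0.898 and 0.600 CPM in NT+noGV libraries (1.67 ± 0.20, adjusted p = 2.45e-08). In Endo cells the CDH2 change was 0.53 ± 0.18 (adjusted p = 0.0228), and this call was lost without NT+noGV or PUT+noGV replicate 2 (adjusted p 0.0785 to 0.0903). Here too the fibroblast sum, mostly COL1A1, was higher, at 33.02, 35.5 and 42.4 CPM in PUT+noGV of Ecto, Endo and VK2 cells. In NT+noGV it was at 15.2, 31.6 and 27.2 CPM. The endothelial sum was higher as well (1.25, 1.14 and 4.15 against 0.471, 0.847 and 1.49 CPM), and the part of both sums was not tested.

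CDH4 fell to 10.5, 12.2 and 11.4 CPM in VK2 PUT+noGV, against 30.9, 32.2 and 31.1 CPM in NT+noGV libraries (-1.45 ± 0.08, adjusted p = 6.90e-16). CDH16 rose in Ecto (1.69 ± 0.26) and VK2 cells (0.60 ± 0.11), and in Endo cells its libraries overlapped (0.27 ± 0.14, adjusted p = 0.151). CDH13 fell in Ecto (-0.67 ± 0.06) and, by less, in VK2 cells (-0.13 ± 0.05, adjusted p = 0.0451); the VK2 call was lost in 4 of the fits without 1 library, those without NT+noGV replicate 2 or 3 or PUT+noGV replicate 1 or 3 (adjusted p 0.0945 to 0.180), and with DESeq2 (adjusted p = 0.0993). CDH1 fell in Ecto (-0.24 ± 0.06, adjusted p = 0.00221) and rose in Endo cells (0.11 ± 0.03, adjusted p = 0.00985; 0.05001 without NT+noGV replicate 1). CDH10 rose in Ecto cells (1.11 ± 0.35, adjusted p = 0.0119; 0.0542 without NT+noGV replicate 1). CDH6 in VK2 cells was at 0.98 ± 0.53 (adjusted p = 0.131; 0.0355 without NT+noGV replicate 2). HSBP1, which overlaps CDH13, averaged 102.8 ± 4.305 CPM in Ecto PUT+noGV and 92.1 ± 3.07 CPM in NT+noGV libraries (SD, n = 3 each). In the same groups it averaged 93.9 ± 2.11 and 87.6 ± 4.335 CPM in VK2 cells. Endo cells had 88.7 ± 2.79 and 88.6 ± 2.68 CPM.

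Whether putrescine acted differently with bacteria was tested by the interaction. It passed for 1 of 6 members in Ecto (all genes 26.4%), 3 of 7 in Endo (34.8%) and 3 of 8 in VK2 cells (27.6%). For CDH3 the fall was deeper with bacteria in Endo (-0.40 ± 0.04, adjusted p = 1.32e-08) and VK2 cells (-0.42 ± 0.05, adjusted p = 3.47e-08), and in Ecto cells the interaction was -0.05 ± 0.06. CDH1 had a negative interaction in Endo (-0.19 ± 0.05) and VK2 cells (-0.37 ± 0.04, adjusted p = 1.95e-07). A positive one was found for CDH2 in Endo (0.73 ± 0.25, adjusted p = 0.0208) and CDH16 in VK2 cells (0.77 ± 0.15, adjusted p = 3.14e-04). For CDH4 in VK2 cells the interaction was -0.23 ± 0.12 (adjusted p = 0.153; 0.0371 without PUT+GV replicate 2), so a difference between its falls with and without bacteria was not established. CDH2 in Ecto cells (-0.59 ± 0.23, adjusted p = 0.0620) passed without NT+noGV replicate 3, PUT+noGV replicate 1 or PUT+GV replicate 2 (adjusted p 0.00752 to 0.0410), and CDH16 in Endo cells (0.45 ± 0.19, adjusted p = 0.0761) without NT+GV replicate 3 (adjusted p = 0.0223). The 1 call in Ecto cells was CDH13 (0.27 ± 0.09, adjusted p = 0.0190), lost without PUT+noGV replicate 3, NT+GV replicate 2 or PUT+GV replicate 3 (adjusted p 0.0560 to 0.0595).

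**Figure D4:**
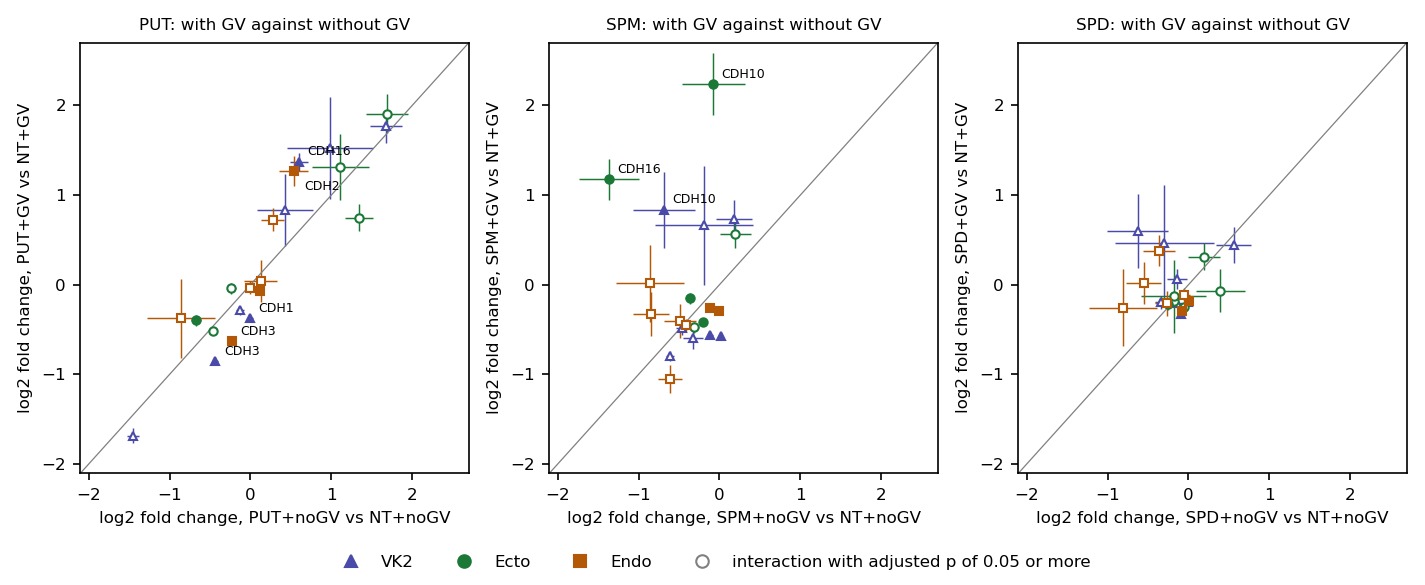
log2 fold change of 8 cadherins under each polyamine with bacteria (vertical axis) against that without bacteria (horizontal axis), with SE bars and the line of equality, by cell line. Filled points had an interaction with an adjusted p under 0.05. Under spermine, Ecto CDH10 and CDH16 lie far above the line (interactions of 2.31 and 2.54), and VK2 CDH10 lies above it with wide bars.

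Spermine before bacteria lowered both main cadherins in every line. In SPM+GV against NT+GV, 6 of 6 members passed in Ecto (all genes 56%), 4 of 7 in Endo (43%) and 6 of 8 in VK2 cells (58.3%). Of these, 2 for Ecto (13.5%), 1 for Endo (5.83%) and 0 for VK2 cells (11.1%) had a fold change of at least 2. The median log2 fold change of the members tested was 0.21, -0.33 and -0.52 in Ecto, Endo and VK2 cells, beside -0.02, -0.01 and -0.02 over all genes.

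CDH1 had 200, 200 and 184 CPM in Ecto SPM+GV, against 291, 278 and 269 CPM in NT+GV libraries (-0.47 ± 0.06, adjusted p = 3.20e-07). In Endo cells it had 499, 480 and 484 CPM in SPM+GV, against 623, 592 and 586 CPM in NT+GV libraries (-0.29 ± 0.03, adjusted p = 3.27e-08). In VK2 cells it had 364, 352 and 334 CPM in SPM+GV, against 551, 536 and 537 CPM in NT+GV libraries (-0.57 ± 0.03, adjusted p = 3.46e-16). All 9 SPM+GV libraries lay below every NT+GV library of their line, and the VK2 change was larger than that of Endo cells (VK2 minus Endo -0.33 ± 0.06, adjusted p = 2.66e-05).

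CDH3 fell along with CDH1, the log2 fold change being -0.41 ± 0.04 for Ecto, -0.26 ± 0.03 for Endo and -0.56 ± 0.03 for VK2 cells. The CDH3 to CDH1 ratio per kilobase stayed near its NT+GV value: 1.46 ± 0.06 in Ecto SPM+GV against 1.40 ± 0.04 in NT+GV, 1.13 ± 0.03 against 1.11 ± 0.03 in Endo, and 1.40 ± 0.04 against 1.39 ± 0.04 in VK2 cells (SD, n = 3 each).

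CDH13 had 15.9, 15.2 and 15.6 CPM in VK2 SPM+GV, against 28.4, 27.6 and 28.4 CPM in NT+GV libraries (-0.79 ± 0.06, adjusted p = 1.47e-13). In Endo cells it had 17.6, 16.2 and 16.4 CPM in SPM+GV, against 23.3, 23.1 and 22.7 CPM in NT+GV libraries (-0.45 ± 0.07, adjusted p = 6.81e-06). In Ecto cells the fall was -0.15 ± 0.06 (adjusted p = 0.0363), lost without NT+GV replicate 1 or SPM+GV replicate 2 or 3 (adjusted p 0.0749 to 0.203) and with DESeq2 (adjusted p = 0.0635). The VK2 fall exceeded those of Ecto (-0.65 ± 0.09) and Endo cells (-0.40 ± 0.10). HSBP1 averaged 82.05 ± 2.08 CPM in VK2 SPM+GV and 93.9 ± 2.03 CPM in NT+GV libraries (SD, n = 3 each), a smaller step in the same direction. In the same groups it averaged 83.7 ± 1.49 and 101 ± 1.30 CPM in Ecto cells. Endo cells had 81.4 ± 2.12 and 92.3 ± 4.83 CPM.

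The scarce members split by line under spermine. CDH16 had 1.71, 2.23 and 2.04 CPM in Ecto SPM+GV, against 1.00, 0.860 and 0.875 CPM in NT+GV libraries (1.17 ± 0.22, adjusted p = 8.00e-05), but fell to 5.37, 3.95 and 5.94 CPM in Endo SPM+GV, against 11.2, 8.28 and 12.3 CPM in NT+GV libraries (-1.05 ± 0.16, adjusted p = 1.28e-05). It fell in VK2 cells too (-0.59 ± 0.12, adjusted p = 1.46e-04). The Ecto and Endo responses differed by 2.18 ± 0.25 (adjusted p = 2.86e-10), and the groups of each line were apart.

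CDH2 rose in Ecto (0.56 ± 0.15, adjusted p = 0.00280) and VK2 cells (0.74 ± 0.20, adjusted p = 0.00236). In Endo cells it had 1.36, 1.36 and 1.60 CPM in SPM+GV and 1.81, 1.96 and 1.95 CPM in NT+GV libraries (-0.40 ± 0.19, adjusted p = 0.0905), and this differed from Ecto (0.92 ± 0.24) and VK2 cells (1.08 ± 0.27, adjusted p = 0.00149). CDH10 had 1.71, 2.58 and 1.88 CPM in Ecto SPM+GV, against 0.776, 0.287 and 0.265 CPM in NT+GV libraries (2.24 ± 0.35, adjusted p = 6.24e-06), its highest group in the study. In VK2 cells the CDH10 change was 0.84 ± 0.42 (adjusted p = 0.0913; 0.0371 without NT+GV replicate 1). CDH4 in VK2 cells had 15.2, 14.2 and 12.7 CPM in SPM+GV, against 19.6, 22.7 and 19.7 CPM in NT+GV libraries (-0.48 ± 0.08, adjusted p = 5.39e-06).

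Without bacteria, spermine changed 4 of 6 members in Ecto (all genes 23.5%), 4 of 7 in Endo (18.1%) and 4 of 8 in VK2 cells (33%), all of them downward. CDH1 fell in Ecto cells (-0.31 ± 0.06, adjusted p = 4.22e-04) but was at -0.01 ± 0.03 in Endo and 0.02 ± 0.03 in VK2 cells, where the SPM+noGV and NT+noGV libraries overlapped. CDH3 fell slightly in each line (-0.21 ± 0.04 for Ecto, -0.12 ± 0.03 for Endo and -0.11 ± 0.03 for VK2), the Endo call being lost with no low-count filter (adjusted p = 0.0535). CDH13 fell in each line as well (-0.37 ± 0.06, -0.41 ± 0.07 and -0.61 ± 0.05). CDH4 in VK2 cells fell by 0.47 ± 0.07 on the log2 scale, and CDH6 in Endo cells by 0.85 ± 0.22 (adjusted p = 0.00607; 0.0514 without SPM+noGV replicate 2). CDH2 in Endo cells was at -0.49 ± 0.20 (adjusted p = 0.0882; 0.0344 without SPM+noGV replicate 1).

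CDH16 without bacteria had 0.187, 0.168 and 0.0884 CPM in Ecto SPM+noGV, against 0.292, 0.264 and 0.578 CPM in NT+noGV libraries (-1.37 ± 0.37, adjusted p = 0.00772). This rests on few counts (6, 7 and 3 against 12, 7 and 25), and without NT+noGV replicate 3, the highest library, the adjusted p was 0.188. In Endo cells the fall was -0.61 ± 0.15 (adjusted p = 0.00626) and in VK2 cells -0.33 ± 0.12 (adjusted p = 0.0393). The VK2 call was lost without NT+noGV replicate 1 or 3 or any 1 SPM+noGV library (adjusted p 0.0567 to 0.153) and with DESeq2 (adjusted p = 0.0566).

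The interaction of spermine and bacteria passed for 4 of 6 members in Ecto (all genes 36.3%), 2 of 7 in Endo (24.3%) and 3 of 8 in VK2 cells (38.9%). It was negative for CDH1 in Endo (-0.28 ± 0.05, adjusted p = 3.86e-05) and VK2 cells (-0.58 ± 0.04, adjusted p = 4.30e-12), where spermine lowered CDH1 with bacteria and left it near its NT level without them. In Ecto cells, where CDH1 fell in both settings, the interaction was -0.16 ± 0.09 (adjusted p = 0.146). For CDH3 it was -0.45 ± 0.05 in VK2, -0.20 ± 0.06 in Ecto and -0.14 ± 0.04 in Endo cells, the last lost without NT+noGV replicate 3 or SPM+GV replicate 3 (adjusted p 0.0532 to 0.0578). CDH16 in Endo cells (-0.43 ± 0.22, adjusted p = 0.165) passed without NT+GV replicate 2 (adjusted p = 0.0221), and CDH13 in VK2 cells (-0.18 ± 0.08, adjusted p = 0.0657) without SPM+noGV replicate 2 (adjusted p = 0.0474).

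In Ecto cells the interaction was positive for CDH10 (2.31 ± 0.53, adjusted p = 0.00114) and CDH16 (2.54 ± 0.43, adjusted p = 4.24e-05). For CDH13 it was 0.22 ± 0.09 (adjusted p = 0.0486), a value that crossed the threshold in 11 of the fits without 1 library (adjusted p 0.0501 to 0.123), all but the one without NT+GV replicate 1. CDH10 in VK2 cells passed at 1.52 ± 0.57 (adjusted p = 0.0328), with 10, 13 and 8 counts in SPM+GV, 10, 5 and 5 in NT+GV, 11, 7 and 10 in SPM+noGV and 18, 7 and 23 in NT+noGV libraries. This call was lost in 6 fits without 1 library, those without NT+noGV replicate 1 or 3, SPM+noGV replicate 2 or 3, NT+GV replicate 3 or SPM+GV replicate 2 (adjusted p 0.0523 to 0.114), and with DESeq2 (adjusted p = 0.0723).

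Spermidine before bacteria lowered P-cadherin in every line. In SPD+GV against NT+GV, 3 of 6 members passed in Ecto (all genes 13.1%), 2 of 7 in Endo (13.9%) and 3 of 8 in VK2 cells (12.7%), all downward. No member had a fold change of at least 2 as well (0 in Ecto, all genes 0.55%; 0 in Endo, 0.443%; 0 in VK2, 0.433%). The median log2 fold change of the members tested was -0.16, -0.18 and -0.06 in Ecto, Endo and VK2 cells, beside 0.02, 0.01 and 0.00 over all genes. CDH3 had 347, 353 and 331 CPM in Ecto SPD+GV, against 424, 400 and 409 CPM in NT+GV libraries (-0.25 ± 0.04, adjusted p = 3.62e-04), and it fell in Endo (-0.29 ± 0.03, adjusted p = 1.07e-07) and VK2 cells (-0.33 ± 0.03, adjusted p = 2.85e-08). The SPD+GV libraries lay below the NT+GV libraries for CDH3 in each line.

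CDH1 fell by nearly the same amount in each line after spermidine and bacteria, with log2 fold changes of -0.18 ± 0.06 for Ecto, -0.18 ± 0.03 for Endo and -0.19 ± 0.03 for VK2 cells. The Ecto call (adjusted p = 0.0443) was lost without any 1 of its 6 libraries (adjusted p 0.0518 to 0.189). CDH13 fell in Ecto (-0.22 ± 0.06, adjusted p = 0.0198) and VK2 cells (-0.20 ± 0.05, adjusted p = 0.00843), and these calls were lost in Ecto cells without NT+GV replicate 1 or SPD+GV replicate 2 (adjusted p 0.0980 to 0.139) and in VK2 cells without SPD+GV replicate 2 (adjusted p = 0.0599). CDH2 was at 0.31 ± 0.15, 0.38 ± 0.17 and 0.44 ± 0.20 in Ecto, Endo and VK2 cells; all 9 SPD+GV libraries were above the NT+GV libraries of their line and none of the 3 comparisons passed (adjusted p 0.155 to 0.190).

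Without bacteria, spermidine gave 0 calls of 6 members in Ecto (all genes 0.303%), 0 of 7 in Endo (0.181%) and 1 of 8 in VK2 cells (0.46%) with edgeR. Over all genes, 2884 of 19459 in Ecto, 1828 of 18741 in Endo and 1824 of 18474 in VK2 cells had an unadjusted p under 0.05 (edgeR). Of the members, 2 of 6 in Ecto (CDH1 and CDH13) and 2 of 7 in Endo cells (CDH3 and CDH6) had one. In VK2 cells 4 of 8 did (CDH2, CDH3, CDH4 and CDH13). DESeq2 called 1 member in Ecto cells, CDH13 (-0.23 ± 0.06, adjusted p = 0.0122), 0 in Endo and 1 in VK2 cells. With edgeR the Ecto value of CDH13 (-0.25 ± 0.06, adjusted p = 0.0713) passed without SPD+noGV replicate 1 or 2 (adjusted p 0.0226 to 0.0429). There SPD+noGV replicate 3 stood apart, with 63.6 CPM of CDH13 and 249 CPM of CDH1, beside 74.6 and 77.6 CPM of CDH13 and 308 and 306 CPM of CDH1 in the other 2 SPD+noGV libraries, against 83.8 to 86.1 CPM and 322 to 330 CPM in NT+noGV libraries. The VK2 call was CDH4, with 24.0, 24.3 and 25.8 CPM in SPD+noGV against 30.9, 32.2 and 31.1 CPM in NT+noGV libraries (-0.34 ± 0.07, adjusted p = 0.0122); it was lost without NT+noGV replicate 2 or SPD+noGV replicate 1 or 2 (adjusted p 0.0677 to 0.133).

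The interaction of spermidine and bacteria passed for 0 of 6 members in Ecto (all genes 3.13%), 2 of 7 in Endo (3.45%) and 1 of 8 in VK2 cells (0.352%) with edgeR. In Ecto cells 1 member, CDH3, had an unadjusted p under 0.05 (edgeR) and was called by DESeq2. In Endo cells 3 members (CDH1, CDH2 and CDH3) and in VK2 cells 3 (CDH1, CDH3 and CDH10) had such a p. Over all genes it was 3752 of 19459 in Ecto, 3245 of 18741 in Endo and 2166 of 18474 in VK2 cells. The edgeR calls were CDH3 in Endo (-0.20 ± 0.04, adjusted p = 0.00663) and VK2 cells (-0.24 ± 0.05, adjusted p = 0.0112) and CDH1 in Endo cells (-0.19 ± 0.05, adjusted p = 0.0265). CDH3 in Ecto cells was at -0.19 ± 0.06 (adjusted p = 0.0743; 0.00144 with DESeq2; 0.0467 without SPD+noGV replicate 3), and CDH1 in VK2 cells at -0.18 ± 0.04 (adjusted p = 0.0534; 8.61e-04 with DESeq2; 0.0483 without NT+GV replicate 2). The VK2 call for CDH3 was lost without NT+GV replicate 1 or SPD+GV replicate 2 (adjusted p 0.0507 to 0.0658). That for CDH1 in Endo cells was lost in 6 fits, those without NT+noGV replicate 1 or 3, SPD+noGV replicate 3, NT+GV replicate 1 or SPD+GV replicate 2 or 3 (adjusted p 0.0518 to 0.0867). CDH2 in Endo cells (0.74 ± 0.26, adjusted p = 0.114) passed without SPD+GV replicate 1 (adjusted p = 0.0450).

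Spermine and spermidine were given at the same dose and time, and spermine carries an aminopropyl group more than spermidine, so the pair was compared directly. In SPM+GV against SPD+GV, 4 of 6 members passed in Ecto (all genes 53.8%), 4 of 7 in Endo (44.6%) and 5 of 8 in VK2 cells (52.6%). CDH1 was lower after spermine in Ecto (-0.29 ± 0.06, adjusted p = 2.65e-04), Endo (-0.11 ± 0.03, adjusted p = 0.0127) and VK2 cells (-0.37 ± 0.03, adjusted p = 1.25e-11), the Endo call being lost without SPD+GV replicate 1 or SPM+GV replicate 2 (adjusted p 0.0539 to 0.131). CDH3 was lower after spermine in Ecto (-0.17 ± 0.04) and VK2 cells (-0.23 ± 0.03). In Endo cells the CDH3 difference was 0.03 ± 0.03, with a 95% interval of -0.03 to 0.09.

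CDH13 was lower after spermine than after spermidine in Endo (-0.34 ± 0.07) and VK2 cells (-0.59 ± 0.06, adjusted p = 1.84e-10), and in Ecto cells the difference was 0.06 ± 0.06 (95% interval -0.06 to 0.19). CDH16 had 1.71, 2.23 and 2.04 CPM in Ecto SPM+GV, against 1.10, 0.816 and 0.670 CPM in SPD+GV libraries (1.24 ± 0.23, adjusted p = 4.60e-05), whereas it was lower after spermine in Endo (-0.84 ± 0.16) and VK2 cells (-0.66 ± 0.12). CDH10 in Ecto cells had 1.71, 2.58 and 1.88 CPM in SPM+GV, against 0.550, 0.408 and 0.258 CPM in SPD+GV libraries (2.37 ± 0.35, adjusted p = 3.70e-06). CDH2 was lower after spermine in Endo cells (-0.78 ± 0.18, adjusted p = 8.59e-04), and in Ecto (0.25 ± 0.15) and VK2 cells (0.30 ± 0.19) it did not pass, with 95% intervals of -0.06 to 0.56 and -0.09 to 0.69. CDH4 in VK2 cells was lower after spermine (-0.28 ± 0.08, adjusted p = 0.00344).

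Without bacteria the 2 compounds differed for fewer members: in SPM+noGV against SPD+noGV, 2 of 6 passed in Ecto (all genes 20.4%), 1 of 7 in Endo (12.6%) and 1 of 8 in VK2 cells (28.3%). CDH13 was lower after spermine in Endo (-0.36 ± 0.07, adjusted p = 5.06e-04) and VK2 cells (-0.48 ± 0.05, adjusted p = 3.92e-08). In Ecto cells CDH16 (-1.76 ± 0.36, adjusted p = 9.70e-04) and CDH3 (-0.15 ± 0.04, adjusted p = 0.0105) were lower, and the CDH3 call was lost without SPM+noGV replicate 3 (adjusted p = 0.0566) and with no low-count filter (adjusted p = 0.206). Without SPD+noGV replicate 3, the library that stood apart, 4 members passed in Ecto cells, with CDH1 (adjusted p = 2.33e-04) and CDH13 (adjusted p = 0.00265) added. For CDH1 the difference was -0.01 ± 0.03 in Endo (95% interval -0.08 to 0.06) and 0.03 ± 0.03 in VK2 cells (-0.04 to 0.09), and both intervals include 0.

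Whether a response differed between lines was tested in one fit of all 72 libraries, with 8 members tested. For G. vaginalis alone, 3 members passed between Ecto and Endo (all genes 28%), 1 between VK2 and Endo (25.8%) and 4 between VK2 and Ecto (27.5%). For PUT+GV against NT+GV, 3 passed between Ecto and Endo (24.8%), 4 between VK2 and Endo (22.4%) and 3 between VK2 and Ecto (35%). For SPM+GV against NT+GV, 6 passed between Ecto and Endo (25.8%), 4 between VK2 and Endo (24.6%) and 3 between VK2 and Ecto (31.6%). The 6 for spermine between Ecto and Endo cells were CDH1, CDH2, CDH3, CDH10, CDH13 and CDH16. In fits without all libraries of 1 replicate number, 11 of these 31 calls were lost at least once (adjusted p 0.0524 to 0.416): for bacteria alone CDH1 and CDH2 between VK2 and Ecto and CDH16 between Ecto and Endo, for putrescine CDH10 and CDH13 between Ecto and Endo and CDH13 and CDH16 between VK2 and Endo, and for spermine CDH1, CDH10 and CDH13 between Ecto and Endo and CDH3 between VK2 and Ecto. CDH4 and CDH6 passed in none of these 9 comparisons, where the SE of each difference was 0.59 or more.

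The members tested in all 3 lines kept to different parts of the range. Ordered over the 24 group means, CDH1 ran between 691 CPM in Endo PUT+noGV and 194 CPM in Ecto SPM+GV. CDH3 was highest in VK2 NT+GV at 793 CPM and lowest in Ecto PUT+GV at 278 CPM, and CDH13 ranged between 84.8 CPM in Ecto NT+noGV and 15.5 CPM in VK2 SPM+GV. CDH2 was highest in Endo PUT+GV (4.58 CPM) and lowest in VK2 NT+noGV (0.764 CPM), and CDH16 was highest in VK2 PUT+GV (21.7 CPM) and lowest in Ecto SPM+noGV (0.148 CPM). CDH10 was highest in Ecto SPM+GV (2.06 CPM) and lowest in VK2 NT+GV (0.256 CPM). Of the 23 steps between neighboring groups in this order, only 7 for CDH1, 8 for CDH3, 8 for CDH13, 1 for CDH2, 7 for CDH16 and 2 for CDH10 were wider than the SDs of both groups together; the others do not differ beyond their spread.

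CDH11, which is typical of fibroblasts and osteoblasts, was almost absent. It had 0 to 2 counts in Ecto libraries, 0 or 1 in Endo libraries and 0 to 15 in VK2 libraries, and passed the low-count filter in no line. Its highest libraries were 15, 9 and 12 counts in VK2 PUT+GV, beside 7, 3 and 6 counts in NT+GV and 9, 5 and 3 in NT+noGV; no test was made. In untreated cells, 17 counts in VK2 stood against 0 in Ecto and 0 in Endo. With 3 counts over the group as the upper limit that 0 allows, and the 17 taken without error, the VK2 to Ecto ratio was at least 6.97. On the same terms the VK2 to Endo ratio was at least 5.52. With counting error on both sums, the lower 95% limits of these ratios were 5.08 and 4.02. CDH6 was equally scarce in Ecto cells, with 6 counts over 24 libraries, and CDH4 had 19 counts in Ecto and 24 in Endo cells over 24 libraries each. CDH6 in Endo cells, where bacteria alone and spermine alone lowered it, was at 0.04 ± 0.23 after PUT+GV, -0.33 ± 0.24 after SPM+GV and 0.02 ± 0.23 after SPD+GV, and passed in none of the 3. CDH10 in Endo cells had 4 to 16 counts per library and passed in no comparison within that line.

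Over the 72 libraries, after the mean of each line was taken off, some members moved together. These libraries share conditions and, within a line, cells, so the correlations of log2 CPM (Pearson's r, n = 72) are descriptions. CDH2 and CDH3 had r = -0.82, CDH2 and CDH16 r = 0.79, CDH1 and CDH13 r = 0.73, and the neighbors CDH1 and CDH3 r = 0.62. Among 16962 genes, the pattern most like that of CDH2 was ARHGAP42 (r = 0.92), for CDH3 ACTB (0.97), for CDH13 ABCA2 (0.92) and for CDH16 KALRN (0.90). For CDH10, with its low counts, the highest was CDK19 at 0.67.

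Genes for junction partners of the cadherins were looked at next, by their RNA: catenins, vinculin, afadin and nectins. Of 11 tested in Ecto cells (12 in Endo and 11 in VK2), 4 rose and 3 fell in PUT+GV in Ecto, 5 rose and 4 fell in Endo and 3 rose and 6 fell in VK2 cells. In SPM+GV 1 rose and 7 fell in Ecto, 1 rose and 6 fell in Endo and 1 rose and 6 fell in VK2 cells. In SPD+GV none rose and 3, 2 and 1 fell, and with bacteria alone 3, 6 and 6 rose and 4, 3 and 0 fell. Over all genes of Ecto, Endo and VK2 cells, 56.3%, 56.1% and 60.4% passed in either direction in PUT+GV, 56%, 43% and 58.3% in SPM+GV, 13.1%, 13.9% and 12.7% in SPD+GV and 44.6%, 54.4% and 26.4% with bacteria alone, and the counts of each list below are to be read against these shares. The median log2 fold change of the list in Ecto, Endo and VK2 cells was 0.07, 0.11 and -0.09 in PUT+GV, -0.17, -0.11 and -0.17 in SPM+GV, -0.07, -0.04 and -0.01 in SPD+GV and -0.12, 0.16 and 0.13 with bacteria alone; all genes had medians between -0.02 and 0.07 in these comparisons. Afadin (AFDN), which links nectins to actin, fell after putrescine (-0.23, -0.33 and -0.56 in Ecto, Endo and VK2 cells), whereas nectin-2 (NECTIN2) rose (0.78, 0.69 and 0.56).

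The known repressors of CDH1 did not move as one group. Of 9 tested in each line, 3 rose and 4 fell after PUT+GV in Ecto, 3 rose and 2 fell in Endo and 3 rose and 4 fell in VK2 cells, and after SPM+GV 5 rose and 4 fell, 3 rose and 2 fell, and 6 rose and 2 fell. SPD+GV gave 1 rise in each line, with 0, 1 and 1 falls, and bacteria alone 4, 2 and 0 rises with 2, 5 and 0 falls. Of all genes 56.3%, 56.1% and 60.4% passed after PUT+GV and 56%, 43% and 58.3% after SPM+GV. In the same order of lines, the list's median was 0.03, 0.30 and 0.20 in PUT+GV, 0.60, 0.19 and 0.28 in SPM+GV, 0.07, 0.19 and -0.03 in SPD+GV and -0.02, -0.22 and -0.03 with bacteria alone. The Snail gene SNAI1 rose after spermine (3.03 ± 0.12 for Ecto, 1.52 ± 0.13 for Endo and 3.63 ± 0.12 for VK2), and after putrescine (1.76, 1.53 and 1.93). ZEB1 rose after spermine too (2.79, 1.45 and 2.39), but was at 0.62, -0.28 and 0.58 after putrescine, the Endo value without a call. Both genes started low: in untreated VK2, Ecto and Endo cells SNAI1 averaged 2.11, 1.96 and 2.69 CPM. ZEB1 averaged 0.787, 0.404 and 0.458 CPM there. SNAI2 (Slug), the most abundant of these 3 in untreated cells at 212, 181 and 241 CPM in VK2, Ecto and Endo cells, rose after spermine (0.60, 0.48 and 0.30 in Ecto, Endo and VK2) and fell after putrescine (-0.40, -0.37 and -0.56).

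Factors of the epithelial program were counted in the same way. Of 8 tested, 6, 7 and 4 rose and 1, 1 and 1 fell after PUT+GV in Ecto, Endo and VK2 cells, and 6, 5 and 5 rose and 1, 0 and 1 fell after SPM+GV. After SPD+GV 2, 1 and 1 rose and none fell, and with bacteria alone 3, 4 and 4 rose and 2, 3 and 1 fell. The shares of all genes that passed were 56.3%, 56.1% and 60.4% after PUT+GV and 56%, 43% and 58.3% after SPM+GV. The list's median was 0.43, 0.34 and 0.29 in PUT+GV, 0.43, 0.23 and 0.18 in SPM+GV, 0.13, -0.02 and -0.01 in SPD+GV and 0.04, 0.15 and 0.14 with bacteria alone. ELF3, an epithelial ETS factor, rose after putrescine (2.02, 1.30 and 1.76) and spermine (1.86, 1.05 and 2.96), and OVOL1, which represses ZEB1, rose after putrescine (1.95, 0.90 and 0.88) and spermine (3.46, 1.13 and 1.83).

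Genes for cleavage and turnover of cadherins (8 tested, among them ADAM10 and the gamma-secretase subunits) had 3, 2 and 3 rises and 2, 4 and 5 falls after PUT+GV, and 1, 1 and 1 rises and 6, 1 and 4 falls after SPM+GV in Ecto, Endo and VK2 cells. SPD+GV gave no rise and 0, 1 and 1 falls, and bacteria alone 2, 4 and 3 rises and 2, 1 and 1 falls. Their median was 0.06, -0.11 and -0.18 in PUT+GV, -0.19, -0.03 and -0.08 in SPM+GV, -0.07, -0.04 and -0.01 in SPD+GV and -0.07, 0.06 and 0.08 with bacteria alone. ADAM15, a membrane protease, fell after putrescine (-0.16, -0.52 and -0.61), as did nicastrin (NCSTN; -0.33, -0.52 and -0.61).

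Of 13 other cadherins of the same family, 3, 3 and 4 passed the low-count filter in Ecto, Endo and VK2 cells. After PUT+GV 1, 2 and 1 of them rose and none fell, and after SPM+GV none rose and 2, 2 and 1 fell. After SPD+GV 1 rose in Ecto cells and none fell, and with bacteria alone 1, 2 and 1 rose and 0, 1 and 1 fell. Their median log2 fold change was 0.28, 0.46 and 0.44 in PUT+GV, -0.23, -0.59 and -0.44 in SPM+GV, -0.03, 0.04 and -0.02 in SPD+GV and 0.30, 0.23 and -0.18 with bacteria alone. CDH24, a type II cadherin, was the most abundant, at a mean of 26.96, 40.3 and 24.98 CPM over the Ecto, Endo and VK2 libraries, and rose after putrescine in each line (1.03, 0.35 and 0.31). CDH26 fell after spermine in each line (-1.25, -0.59 and -0.75). The vascular cadherin CDH5 averaged 1.93 CPM in Ecto libraries but 0.0271 and 0.0283 CPM in Endo and VK2 libraries.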

How the data were processed

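RNA-seq libraries from Ecto, Endo and VK2 cells were grouped by cell line, polyamine and bacteria as the labels give them, 24 groups of 3. The authors quantified transcripts with Salmon against annotation release 44 (GRCh38.p13) and summed them to genes with tximeta, and the deposited values are estimated counts per gene, already whole numbers, with totals between 20152143 and 42767996. Libraries were made with the CORALL total RNA kit (Lexogen), which keeps strand and adds unique molecular identifiers. Whether these identifiers and strand were used in quantification, and the versions of Salmon and tximeta, are not given in the sources used here. Estimated counts divide reads between overlapping or similar transcripts by a model, which adds uncertainty that a count test does not see.

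Tests used edgeR 4.0.16 and R 4.3.3 (filterByExpr with a minimum count of 10, TMM scaling, robust quasi-likelihood fit, two-sided, Benjamini-Hochberg adjustment over all genes tested). Each line was fitted on its 24 libraries (19459 genes for Ecto, 18741 for Endo and 18474 for VK2), and comparisons between lines used one fit of 72 libraries (21195 genes). The biological coefficient of variation lay between 0.0434 and 0.0643. CPM used the TMM factors of the 72-library fit, and levels per kilobase the union of the exons of a gene in GENCODE 44. The 95% intervals of differences are those of the fit, and those of count ratios cover counting error only. The code was checked on simulated counts. Alternatives were DESeq2 1.42.0, no low-count filter, a replicate block, leaving out single libraries, the untreated libraries alone and a fold threshold of 2. For differences of a response between lines, the block and the fits without 1 replicate number were chosen after seeing the data. No replicate pair agreed within counting noise (chi-square per degree of freedom of 2.27 or more in 72 pairs).

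The 9 members were named in every comparison. From each of the other gene lists up to 3 genes with the smallest adjusted p over the main comparisons were named, and CDH5, chosen after its values were seen. The gene most alike to CDH1 is not reported here. The members and the lists were chosen with earlier results of these data known. Tables were computed with Python 3.11.15 and pandas 2.3.3.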

Additional observations from a re-analysis of the deposited data

Results flagged for a closer look

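For 6 members, each tested in every line, the response to a treatment differed between cell lines at an adjusted p under 0.05 (edgeR, one fit of 72 libraries, contrast of 2 contrasts). Values are differences of log2 fold changes, the first line minus the second. For E-cadherin (CDH1), the response to bacteria alone differed by 0.23 between VK2 and Ecto. Its response to putrescine before bacteria differed by -0.29 between VK2 and Ecto and by -0.30 between VK2 and Endo, and that to spermine by -0.22 between Ecto and Endo and -0.33 between VK2 and Endo. For P-cadherin (CDH3), bacteria alone gave -0.18 between Ecto and Endo and 0.29 between VK2 and Ecto. Putrescine gave -0.29 for CDH3 between VK2 and Ecto and -0.22 between VK2 and Endo, and spermine gave -0.19 between Ecto and Endo, -0.16 between VK2 and Ecto and -0.35 between VK2 and Endo.

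For N-cadherin (CDH2), the differences were 1.23 between Ecto and Endo and -0.97 between VK2 and Ecto with bacteria alone, 1.07 between VK2 and Ecto with putrescine, and with spermine 0.92 between Ecto and Endo and 1.08 between VK2 and Endo. For CDH10, which had 4 to 16 counts in Endo libraries, Ecto and Endo differed by 1.64 with putrescine and 2.18 with spermine.

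For T-cadherin (CDH13), bacteria alone gave 0.38 both between VK2 and Ecto and between VK2 and Endo. With putrescine its response differed by -0.41 between Ecto and Endo and by -0.25 between VK2 and Endo. With spermine it differed by 0.26 between Ecto and Endo, by -0.65 between VK2 and Ecto and by -0.40 between VK2 and Endo. For CDH16, Ecto and Endo differed by 1.11 with bacteria alone, by 1.13 with putrescine and by 2.18 with spermine, VK2 and Endo by 0.65 with putrescine, and VK2 and Ecto by -1.77 with spermine. Of the differences in this section, those that were lost without 1 replicate number are named in the report.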

How the results depend on the processing

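No member's log2 value changed its direction together with its call under any alternative, and the counts of members passing moved mostly where few members passed. With DESeq2, 1 member passed in Ecto cells for spermidine without bacteria and 1 for the interaction of spermidine and bacteria (0 each with edgeR), and 2 in VK2 cells for that interaction (1 with edgeR). CDH13 in the putrescine response of VK2 minus Endo was lost with DESeq2 (adjusted p = 0.0567), while CDH2 in that of Ecto minus Endo (0.0470) and CDH16 in the response to bacteria alone of VK2 minus Ecto (0.0430) were gained. With no low-count filter, 2 members passed in Ecto cells for spermidine without bacteria, and 1 in Ecto and 2 in Endo cells for spermine against spermidine without bacteria (2 and 1 with the filter). CDH1 in Endo cells with bacteria alone (adjusted p = 0.0607), CDH6 after PUT+GV (0.0614) and CDH13 after PUT+noGV (0.138) in VK2 cells, and CDH10 in VK2 (0.0647) and CDH13 in Ecto cells (0.134) in the interaction of spermine and bacteria, were lost with no filter in edgeR. Gained there were CDH1 (0.0220) and CDH13 (0.00240) in Ecto cells for spermidine without bacteria, and CDH16 in Endo cells for putrescine without bacteria (0.0148), spermine against spermidine without bacteria (0.0177) and the interactions of putrescine (0.00183) and spermine (0.0114) with bacteria. CDH3 between untreated VK2 and Endo cells passed in the 9 untreated libraries alone (adjusted p = 0.0212, edgeR).

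The labels do not say that a replicate number marks a shared culture or day, and same-numbered libraries did not all deviate together: deviations from their group means had a mean r of 0.02 (Ecto), 0.04 (Endo) and 0.03 (VK2), with 6, 11 and 3 of 84 pairs over 0.1. Still, 18, 18 and 17 of 24 libraries correlated best with their own number, a hint from the data, not from the design. With the number as a replicate block, 2 members passed in Endo cells for spermine against spermidine without bacteria (1 without the block) and 2 in VK2 cells for the interaction of spermidine and bacteria (1 without it). Over single members the block added 11 calls, 4 of them CDH16 in Endo cells (PUT+noGV, adjusted p = 0.0123; spermine against spermidine without bacteria, 0.00885; interaction of putrescine, 0.00188, and of spermine, 0.0164; edgeR), and took 1, CDH13 in Ecto cells in the interaction of spermine and bacteria (adjusted p = 0.0529, edgeR).

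Requiring a fold change of at least 2 left 2, 0 and 0 members in Ecto, Endo and VK2 cells for bacteria alone, 2, 1 and 4 for PUT+GV, 2, 1 and 0 for SPM+GV and 0 in each line for SPD+GV. The 4 for PUT+GV in VK2 cells include CDH6, which was tested there only because of its putrescine libraries. Without bacteria the same requirement left 3, 0 and 2 for putrescine, 1, 0 and 0 for spermine and 0 in each line for spermidine. Of all 19459, 18741 and 18474 genes tested in Ecto, Endo and VK2 cells, it left 1447, 361 and 987 for putrescine. For spermine it left 359, 181 and 417 of all genes, and for spermidine 2, 1 and 7. It left 2, 0 and 0 members for spermine against spermidine with bacteria and 1, 0 and 0 without them. Of all genes of these lines, it left 2538, 1270 and 1620 with bacteria and 310, 129 and 305 without them. It left 0 members in each line for the interactions of putrescine and of spermidine with bacteria, and 2, 0 and 1 for that of spermine. Of all genes, 600, 658 and 346 were left for the interaction of putrescine. For that of spermidine 29, 19 and 3 were left, and for that of spermine 1731, 575 and 1071. Between untreated lines the requirement left 3 members for VK2 and Endo, 4 for VK2 and Ecto and 3 for Ecto and Endo. In the same order it left 4518, 5403 and 5474 of all 21195 genes. For responses compared between lines, it left 2 between Ecto and Endo for each of bacteria alone, putrescine and spermine, 0, 0 and 1 between VK2 and Endo, and 0, 1 and 1 between VK2 and Ecto. Of the 21195 genes, 901, 619 and 943 were left between Ecto and Endo in that order of treatments. Between VK2 and Endo 760, 745 and 863 were left, and between VK2 and Ecto 730, 1403 and 1298.

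Over the fits without 1 library, 1 to 2 members passed in Ecto cells for SPD+GV (3 with all libraries), 0 to 1 for spermidine without bacteria, 1 to 4 for spermine against spermidine without bacteria, 0 to 2 for the interaction of putrescine and 0 to 1 for that of spermidine. In Endo cells 1 to 3 passed for each of the interactions of spermidine and of spermine. In VK2 cells 0 to 1 passed for spermidine without bacteria and 0 to 2 for its interaction. Between lines, without 1 replicate number, 2 to 5 passed for bacteria alone in VK2 minus Ecto and 3 to 6 for spermine in Ecto minus Endo. Depth limits CDH4 and CDH6 outside VK2 and Endo cells, CDH10 and CDH11, whose libraries hold few or no counts. The cause of these changes was not tested.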
